A study of Mus musculus with 4 samples.

Results

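Among the CpG-dense stretches of the mouse embryonic stem cell genome, 792 windows of 1 kb had a DNA methylation level at least 30 percentage points higher in cells mutated in the Tet enzyme genes than in wild-type cells. Windows were fixed 1 kb tiles of chromosomes 1 to 19, and a window was called dense when at least 20 of its CpGs were listed in both methylation files, which held for 51887 windows. A dense window was a member when the mean methylation of its CpGs was at least 30 points higher in the knockout library than in the wild-type library. The members were thus chosen by the window levels of both methylation libraries, and their levels and gains are given as a description with no test. The cells were E14Tg2a mouse embryonic stem cells, either unmodified (WT) or mutated at Tet1, Tet2 and Tet3 with CRISPR and a mixture of guide RNA vectors (TetTKO). TetTKO cells were transfected in medium with inhibitors of MEK and GSK3, selected with puromycin and picked as colonies, and mass spectrometry left their 5-hydroxymethylcytosine below detection, per the labels. The labels do not say how many colonies the sequenced line represents, nor that WT was transfected or selected, so clonal history and Tet loss cannot be told apart. Both lines were adapted to 15% serum and LIF at 1000 units/ml over a period of 17 days or more. Each genotype had 1 whole-genome bisulfite library and 1 RNA-seq library, 4 libraries in all. Differences are therefore between single libraries, without replicates, and no p-value was computed.

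Tet enzymes oxidise 5-methylcytosine to 5-hydroxymethylcytosine and further products, a route by which methylation can be removed from DNA. In embryonic stem cells most CpGs are methylated, CpG islands at promoters are largely unmethylated, and enhancers and island borders often lie in between. Bisulfite sequencing reads 5-methylcytosine and 5-hydroxymethylcytosine alike, so a level below is the share of reads carrying either of them.

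Of the members, 15 held a RefSeq transcription start site that could be placed on the methylation files. The 4 promoters with the largest differences are printed first, because they show where single CpGs differed. Sequences are from RefSeq (GRCm38.p6), read in the direction of transcription from 250 bases before to 50 bases after the start, and capitals mark the CpGs listed in both files. They were placed on mm9, the build of the files, by the spacing of their CpGs. Steap4, a metalloreductase of the STEAP family, lies on the plus strand at chr5:7960222-7960521. C2cd4a, which encodes a C2 domain protein, lies on the minus strand at chr9:67680088-67680387. The uncharacterised 4430402I18Rik lies on the minus strand at chr19:29042273-29042572, where the placed start was 3678 bp from the end of the gene interval in the files. Spag8, a sperm-associated antigen, lies on the minus strand at chr4:43666417-43666716.
Steap4: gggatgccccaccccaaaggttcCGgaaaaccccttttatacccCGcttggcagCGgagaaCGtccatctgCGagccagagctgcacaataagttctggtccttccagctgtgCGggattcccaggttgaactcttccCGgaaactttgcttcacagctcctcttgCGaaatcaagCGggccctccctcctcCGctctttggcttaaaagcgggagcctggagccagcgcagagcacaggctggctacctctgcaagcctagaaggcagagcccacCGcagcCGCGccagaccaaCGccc
C2cd4a: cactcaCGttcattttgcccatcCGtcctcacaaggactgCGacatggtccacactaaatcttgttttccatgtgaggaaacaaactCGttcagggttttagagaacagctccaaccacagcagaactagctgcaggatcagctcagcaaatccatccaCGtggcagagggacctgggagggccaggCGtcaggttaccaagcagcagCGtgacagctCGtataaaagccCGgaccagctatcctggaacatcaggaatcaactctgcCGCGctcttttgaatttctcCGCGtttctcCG
4430402I18Rik: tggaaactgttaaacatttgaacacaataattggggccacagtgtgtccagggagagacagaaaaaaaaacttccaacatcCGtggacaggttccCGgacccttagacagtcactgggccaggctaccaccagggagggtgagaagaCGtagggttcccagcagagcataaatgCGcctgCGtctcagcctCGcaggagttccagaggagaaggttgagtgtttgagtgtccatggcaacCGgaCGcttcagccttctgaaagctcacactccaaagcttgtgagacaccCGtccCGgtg
Spag8: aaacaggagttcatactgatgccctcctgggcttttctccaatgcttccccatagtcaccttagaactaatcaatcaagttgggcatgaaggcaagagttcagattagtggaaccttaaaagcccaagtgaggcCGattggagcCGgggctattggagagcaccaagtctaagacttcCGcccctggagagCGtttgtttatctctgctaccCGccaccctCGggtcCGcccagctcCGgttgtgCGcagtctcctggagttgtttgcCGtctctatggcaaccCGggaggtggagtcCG

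At each of these promoters the marked CpGs were low in WT and higher in TetTKO. Steap4 had 6.54% of 107 reads methylated in WT over its 14 CpGs (exact Clopper-Pearson 95% interval 2.67 to 13.02) and 66.9% of 118 reads in TetTKO (57.7 to 75.3). No Steap4 CpG exceeded 20% in WT, and none was below 37.5% in TetTKO. C2cd4a had 7.84% of 153 reads in WT (4.12 to 13.3) and 47.9% of 121 in TetTKO (38.8 to 57.2) over 14 CpGs. Counted from the start site, its CpGs from position 21 to 49 were the least methylated in TetTKO, with 14.3% to 33.3%, whereas those at positions -63 and -32 had 100%. The 10 CpGs of 4430402I18Rik had 8.05% of 87 reads in WT (3.30 to 15.9) and 50% of 86 in TetTKO (39.02 to 60.98). The 12 CpGs of Spag8 had 3.26% of 92 reads in WT (0.678 to 9.23) and 45.6% of 114 in TetTKO (36.3 to 55.2). Intervals cover counting error only, and a read is counted once for each CpG it covers, so they are too narrow even for that. Every one of the 50 CpGs was higher in TetTKO. The promoters were picked by their difference over these same CpGs, so neither this direction nor the intervals test a difference. RNA of all these genes was under 0.2 FPKM (fragments per kilobase of transcript, scaled to the mapped fragments of the library) in both libraries. Steap4 had 0.15 FPKM in WT and 0.08 in TetTKO.

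**Figure D1:**
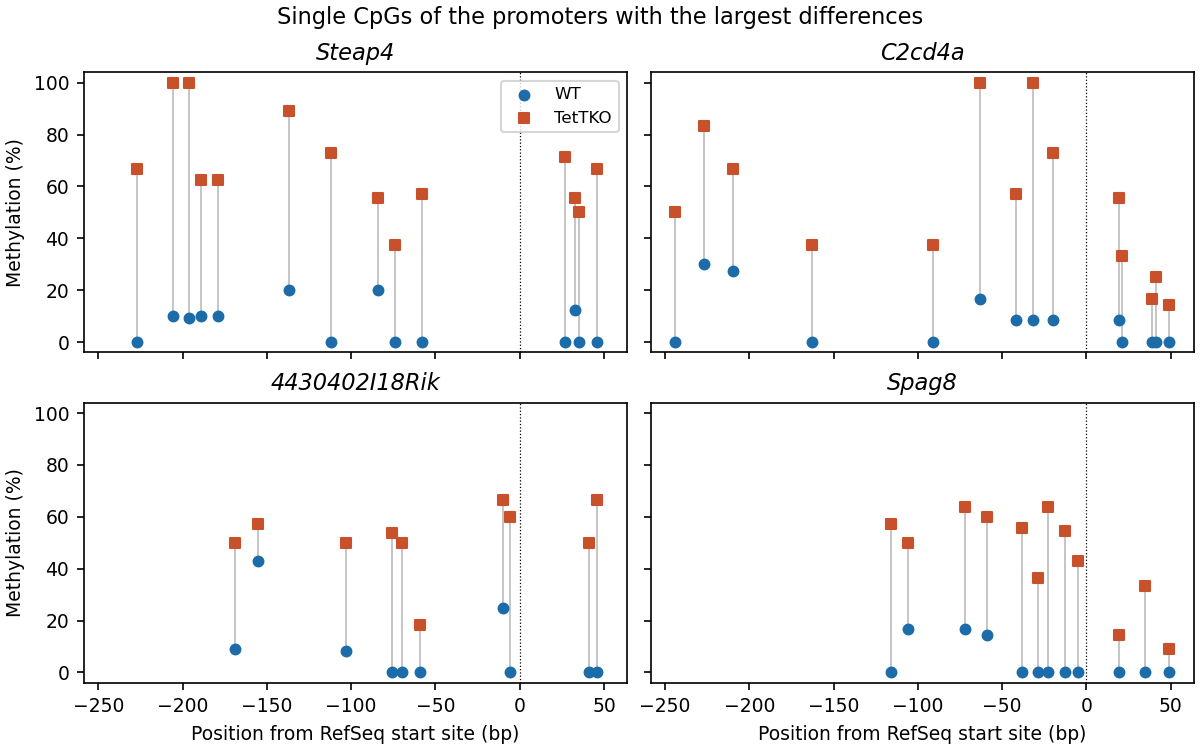
Methylation of single CpGs (y, percent of reads) against position from the RefSeq start site (x, bp) for the 4 printed promoters, circles for WT and squares for TetTKO, 1 library each, with lines joining the values of a CpG. TetTKO lies above WT at every CpG, and no Steap4 CpG exceeds 20% in WT.

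The other 11 placed promoters were also higher in TetTKO, by 19.5 to 37.0 points over their own listed CpGs. The smallest differences were those of Esrrg, an orphan nuclear receptor gene (12.1% in WT and 31.6% in TetTKO over 8 CpGs), and Klhl5 (0.833% and 23.3%). The promoter of Cav2, a caveolin gene, had 0% over 12 CpGs in WT and 23.2% in TetTKO. Of all 15 genes, Iqsec1 (1.23 FPKM in WT and 1.03 in TetTKO) and Klhl5 (1.02 and 1.18) were the ones that reached 1 FPKM, and neither differed 2-fold. Levels of RNA in bulk samples cannot tell fewer expressing cells from less RNA per cell, and a window at an intermediate level can likewise be a mixture of cells or of alleles.

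Members ran from 1.58% to 56.5% in WT, with a median of 24.5%, and from 34.3% to 88.0% in TetTKO, with a median of 60.6%. The median gain was 34.0 points and the largest 63.8. Members made up 1.53% of dense windows. A difference of 30 points in the other direction was found in 18 windows, 0.0347% of dense windows. In WT, 712 members lay between 10 and 50%, 74 under 10% and 6 at 50% or more. In TetTKO, 631 of the 792 stood at 50% or more. Within the rule no window over 70% in WT could be a member. The share of dense windows that were members was 0.352% under 10% in WT, 8.004% from 20 to 30%, 8.30% from 30 to 40% and 3.76% from 40 to 50%.

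**Figure D2:**
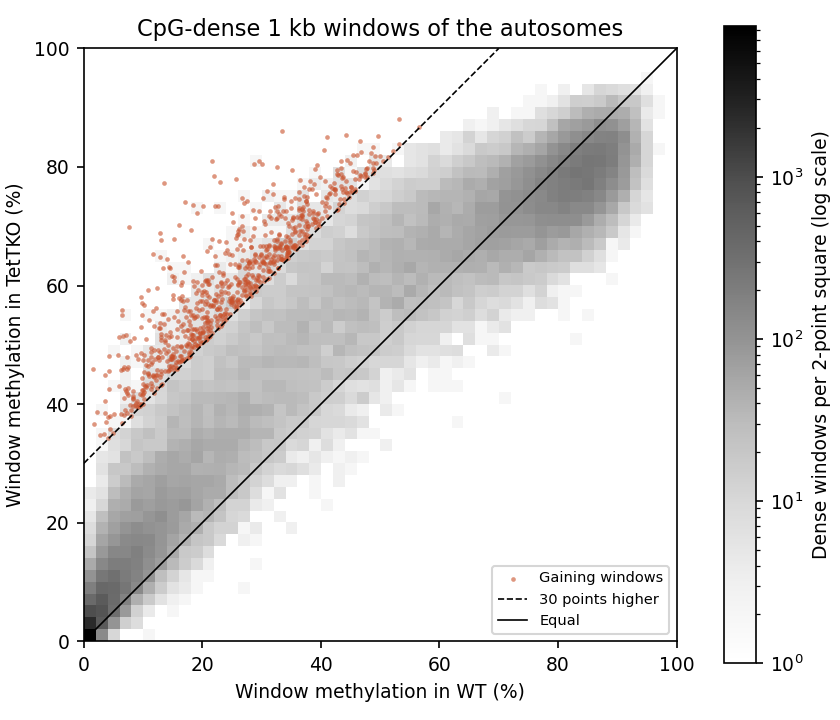
Methylation of dense windows in WT (x, percent) and TetTKO (y, percent), 1 library each. Grey squares count all 51887 dense windows on a log scale, points are the 792 members, the dashed line marks 30 points more in TetTKO and the solid line equal levels. Members reach from 1.58% to 56.5% in WT.

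The cloud of dense windows thins out towards the dashed line without a gap, so the threshold cut through a continuum. Just inside it stood a window in Abcg5, a sterol transporter gene (chr17:85075000-85075999), with 29% in WT and 59.01% in TetTKO, a gain of 30.01 points. Just outside stood a window in Scamp3 (chr3:88985000-88985999) with 29.5% and 59.5%, and one at Hoxb13 (chr11:96057000-96057999) with 24.7% and 54.7%.

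The CpG values that chose a window are described here without a test. Of 19301 CpGs in members, 90.8% were higher and 6.71% lower in TetTKO, where 31.6% of the CpGs of all dense windows were higher, and in the median window 91.3% were higher. CpGs of at most 20% made up 53.5% of these CpGs in WT and 5.75% in TetTKO. CpGs of at least 80% made up 3.34% and 23.4%. Most CpGs of members in TetTKO, 70.9%, lay between those limits. The left and right 500 bp of a member differed by a median of 12.0 points in WT over 527 members with at least 8 CpGs on each side. The same value was 24.3 points over 6838 dense windows of 10 to 50% in WT that were not members, here called intermediate non-members. A window that is already methylated on 1 side has less room for a gain, so the rule itself bears on that contrast.

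When the window was split so that selection and measurement used different DNA, the gain was smaller. Of 15600 dense windows with at least 8 CpGs in their first 300 bp and 5 in their last 300 bp, 462 gained 30 points in the first part. Their last 300 bp had 42.1% in WT and 52.2% in TetTKO, a mean difference of 10.1 points, against 3.54 points over all 15600. The last part was higher in TetTKO in 74.0% of the 462 and in 59.03% of all. With odd-numbered CpGs used for selection, 871 windows were picked, and their even-numbered CpGs, which share reads with the odd ones, gained 31.9 points.

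On average the members formed a dip in methylated DNA in WT, which was almost level with its surroundings in TetTKO. The members averaged 25.1% in WT, the next windows on either side 51.9% and 53.2%, and the windows 2 away 61.5% and 62.5%. In TetTKO the members averaged 60.7%, the next windows 62.7% and 63.2%, and those 2 away 64.1% and 65%. The intermediate non-members (10936 windows) kept their dip, with 26.5% in WT and 37.2% in TetTKO between next windows of 47.4% and 47.2% in WT and of 50.2% and 50.1% in TetTKO. The central values of both sets follow from how they were chosen, whereas the neighbours were not used by the rule.

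**Figure D3:**
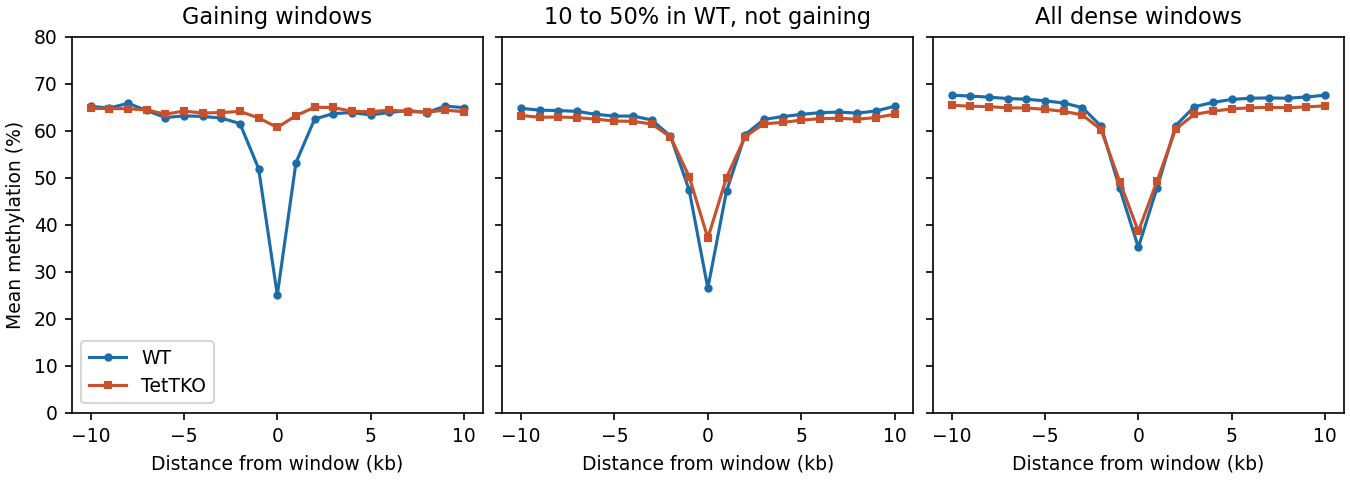
Mean methylation (y, percent) of windows of at least 5 CpGs from 10 kb before to 10 kb after (x, kb) the members, the intermediate non-members and all dense windows, in WT (circles) and TetTKO (squares), 1 library each. Around members the WT dip to 25.1% is matched by 60.7% in TetTKO, and at 3 windows away the libraries differ by 1.18 and 1.30 points.

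The next windows of members were mostly higher in TetTKO too, whereas differences farther away were small and of either sign. Next windows differed by a median of 9.32 points, with 71.5% of them higher, against 0.769 points and 56.8% beside all dense windows. Windows 2 away share no fragment of about 350 bp with the member. They differed by a median of 0.35 points (exact interval of the median over windows -0.38 to 1.13), with 51.7% higher, against -1.36 points and 44.8% around all dense windows. In windows of 20 to 24 CpGs these medians were 0.40 for members and -2.77 for all. The value depended on the neighbours counted, and with at least 10 CpGs required it was 2.80 points (1.84 to 3.98). Without neighbours that were members themselves the median was 0.19 points. By 10 windows away the mean differences were -0.445 and -0.854 points, against -2.14 and -2.25 around all dense windows and -1.53 and -1.70 around intermediate non-members. In steps of 100 bp the WT level was lowest at the window centre, at 21.98%, and rose to 47.2% at 900 to 1000 bp on either side, while TetTKO stayed between 56.2% and 61.6% over the same span.

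Members rarely bordered an unmethylated stretch. In WT a next window under 10% was present for 98 of 774 members with a measured neighbour, 12.7% (exact interval 10.4 to 15.2), against 36.4% of all dense windows and 32.2% of intermediate non-members. Both next windows were at least 50% methylated for 242 of 664 members, 36.4%, close to the 36.9% of all dense windows and above the 25.3% of intermediate non-members. Another 40.8% had 1 such next window, and 22.7% had none, against 33.0% and 30.1% of all dense windows and 56.6% and 18.1% of intermediate non-members. Steap4 lay between methylated windows, its window having 12.9% between next windows of 73.4% and 82.0% in WT, and 68.9% between 68.7% and 73.4% in TetTKO. Intervals over windows say nothing of the spread between cultures, and these contrasts were not tested. Neighbouring levels move with CpG number, and among dense windows of 20 to 24 CpGs the share beside an unmethylated window was 11.1% of members, 16.6% of all and 30.1% of intermediate non-members. In that class both next windows were methylated for 35.9%, 60.8% and 27.3%.

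Members held few CpGs for dense windows. The median was 23 CpGs against 25 for all dense windows, and 24.4 against 32.1 on average. They made up 2.07% of windows of 20 to 24 CpGs, 2.32% of those with 25 to 29, 0.982% with 30 to 39, 0.187% with 40 to 59 and 0.0243% with 60 or more. Read depth was close to that of other dense windows, at a median of 9.04 reads per CpG in WT and 9.31 in TetTKO against 8.81 and 9.77. A single member in Sfi1 (chr11:3093000-3093999) stood apart with 246 reads per CpG in WT and 205 in TetTKO, the next deepest having 18.6 in WT. Its 14769 WT reads were 28.4% methylated and its 12281 TetTKO reads 60.5%. All 19 autosomes held members, from 0.891% of the dense windows of chromosome 7 to 2.51% on chromosome 16. Chromosome 6, which had 1.34 times the coverage of the median autosome in WT and 0.982 times in TetTKO, held 48 members, 1.54% of its dense windows.

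Inside genes, away from their ends, was the most frequent place of a member. This was the case for 441 members, 55.7% (52.1 to 59.2), against 38.0% of all dense windows and 41.7% of intermediate non-members. Another 107, 13.5% (11.2 to 16.1), lay at a gene end, meaning that it touched the outer 1000 bp or the first 500 bp within either end of a gene interval. The files carry no strand. The same held for 39.5% of all dense windows and 31.2% of intermediate non-members. The remaining 244, 30.8%, lay outside genes and their ends, against 22.6% and 27.1%. Part of this goes with CpG number, since very CpG-rich windows sit at promoters. Among windows of 20 to 24 CpGs, 12.6% of members, 17.4% of all and 25.7% of intermediate non-members lay at an end, and 54.6%, 51.2% and 42.6% inside genes. Whether a window within a gene is exonic or intronic was not determined, because no annotation of this build was used.

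**Figure D4:**
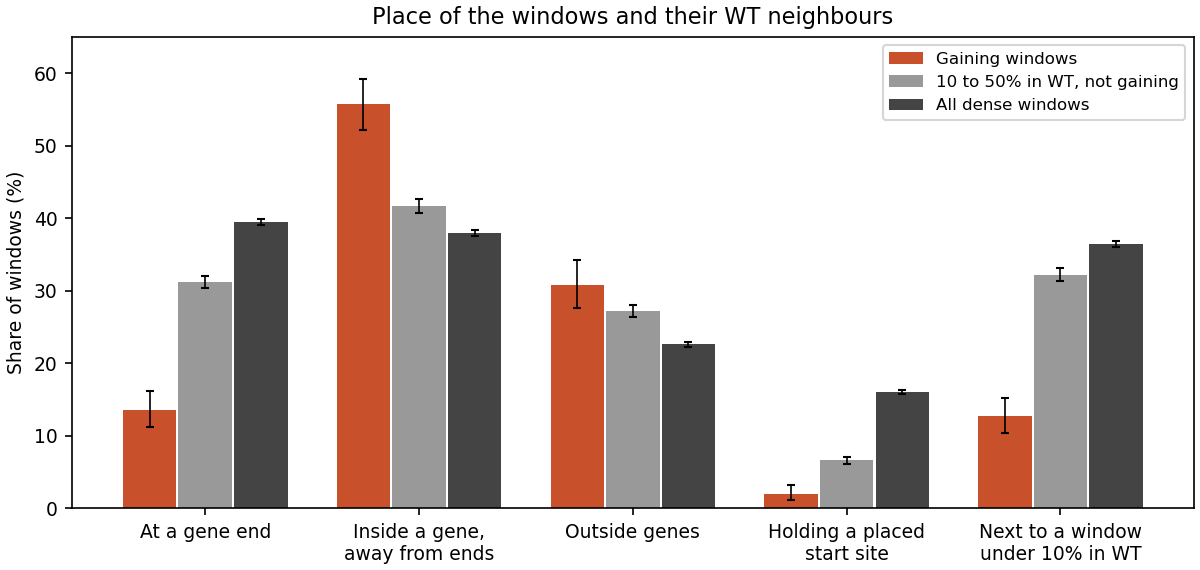
Share of windows (y, percent) by place and by WT neighbour (x) for members, intermediate non-members and all dense windows, with exact 95% binomial intervals over windows as bars. Members are at a gene end in 13.5% of cases against 39.5% of all dense windows, and inside genes in 55.7% against 38.0%.

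Start sites gave the same order. A placed start site lay in 15 of the 772 members on chromosomes with RefSeq promoters, 1.94% (1.09 to 3.18), in 16.02% of all dense windows and in 6.58% of intermediate non-members. In windows of 20 to 24 CpGs the shares were 2.01%, 2.27% and 3.61%, so at matched CpG number the members and all dense windows stood close. The median member lay 49891 bp from a placed start site (41881 to 56201), the median dense window 23877 bp and the median intermediate non-member 23791 bp. In windows of 20 to 24 CpGs the medians were 50284 bp for members (42614 to 58106) and 44375 bp for all dense windows. Members outside genes lay at a median of 17773 bp from the nearest gene, all dense windows outside genes at 12966 bp, those of 20 to 24 CpGs at 17748 bp, and intermediate non-members at 9452 bp.

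The 12 largest gains fell in or near genes of many kinds. At chr14:104128000-104128999, 23984 bp from Slain1, 25 CpGs had 13.5% in WT and 77.3% in TetTKO, and the next window before it had 32.0% and 77.3%. In 1700106N22Rik (chr17:85656000-85656999) the member had 7.70% and 69.95% between next windows of 69.9% and 90.1% in WT. In Nr4a2, an orphan nuclear receptor gene of dopaminergic neurons, the member at chr2:56962000-56962999 had 21.6% and 81.0%, while the next window after it had 15.1% and 38.6%. In Bach1, a haem-regulated repressor, the member at chr16:87721000-87721999 had 17.1% and 74.1%. Thus some members were isolated dips and others lay at the edge of a longer low stretch. Beside Irgm1, an interferon-inducible GTPase gene (chr11:48685000-48685999), the levels were 21.96% and 78.5%, and the window before it, at 21.1% and 73.9%, gained as well. The member in Zeb2, a zinc finger homeobox repressor of E-cadherin (chr2:44844000-44844999), had 18.4% and 73.6%. The member in Pdlim3, an actin-associated LIM protein gene (chr8:47002000-47002999), had 13.1% and 67.7%. The others, at Steap4, LOC629206, Secisbp2, Grip1 and 23370 bp from Pik3cb, gained between 53.4 and 56.1 points.

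Most members had no other member beside them. This was so for 741 of the 792, 24 pairs were adjacent, and 1 run of 3 lay in Rreb1, a RAS-responsive zinc finger gene (chr13:38021000-38023999). Windows with fewer than 20 CpGs could not be members, and of all 1438 measured next windows 188, 13.1%, gained at least 30 points, against 1.45% beside all dense windows. The Rreb1 run had levels in WT of 30.6%, 11.8% and 26.0%, and in TetTKO 70.3%, 41.9% and 60.2%. At least 3 members each touched 14 genes. Snx18, a sorting nexin gene (chromosome 13), had 4 members among 9 dense windows, from 9.86% to 30.7% in WT and from 55.8% to 64.98% in TetTKO. Rreb1 had 4 of 10, C130039O16Rik 4 of 15 and Tiam1, a RAC exchange factor gene, 4 of 33. The others had 3 each, namely 1110012J17Rik, Bach1, Cradd, Epha2, Hlcs, Igsf21, Mllt6, Myo3b, Sall4 and Wwox. Long genes hold more windows, so such a count is no rate. RNA of these 14 genes lay within 2-fold on the scale of FPKM + 1. 1110012J17Rik differed most upward, with 11.3 FPKM in WT and 21.7 in TetTKO, and Igsf21 most downward, with 1.10 and 0.24.

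Genes of the pluripotency network held 6 members. Dense windows touching the list, extended by 1000 bp, numbered 86, so 6.98% (2.60 to 14.6) were members against 1.53% of all dense windows, a contrast that was not tested. This was the highest share among the gene lists. The interval treats windows as independent, whereas the 6 members lay in 4 genes. Of the 6, 3 lay in Sall4, a zinc finger factor needed for the stem cell state. At chr2:168580000-168580999 the Sall4 levels were 28.5% in WT and 59.98% in TetTKO, at chr2:168581000-168581999 18.3% and 51.1% over 47 CpGs, and at chr2:168583000-168583999 16.6% and 47.5%. Sall4 RNA had 25.1 FPKM in WT and 34.6 in TetTKO. The member in Esrrb, an orphan nuclear receptor that sustains naive pluripotency (chr12:87859000-87859999), had 37.0% of methylation in WT and 72.5% in TetTKO. Esrrb RNA stood at 49.3 and 26.4 FPKM, a log2 fold change of -0.88. In Nr5a2, a nuclear receptor that can activate Pou5f1, the member at chr1:138843000-138843999 had 10.1% and 43.4%, and its RNA 19.4 and 12.7 FPKM. In Klf5, a Kruppel-like factor of the same network, the member at chr14:99709000-99709999 had 18.04% and 54.96%, and its RNA 6.13 and 5.84 FPKM. Thus the RNA of 3 of these 4 genes was lower and of 1 higher, none by 2-fold on that scale. Of all 30 expressed genes of the list 1 was 2-fold lower and none 2-fold higher.

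Genes of ephrins and their receptors held another 6 members, of 103 dense windows, 5.83% (2.17 to 12.2), all of them in receptor genes. That share was the next highest among the lists and was not tested, and the 6 members lay in 3 genes, so they were not independent. Epha2, a receptor tyrosine kinase, had 3 of its 6 dense windows among the members. Its adjacent windows at chr4:140864000-140865999 stood at 15.8% and 10.01% in WT and at 49.9% and 41.7% in TetTKO. Epha4 had 2 adjacent members, with 20.5% and 21.1% in WT and 50.9% and 58.0% in TetTKO, and Ephb2 had 1. RNA of the 3 genes differed little, with 38.6 and 41.5 FPKM for Epha2 and 22.97 and 22.6 for Epha4. None of 12 expressed ephrin genes differed 2-fold.

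Developmental transcription factor genes held members at shares whose exact intervals all included the 1.53% of dense windows. HOX genes had 3 of 130 (2.31%), in Hoxa11, Hoxd3 and Hoxd9, and Hoxd9 (chr2:74538000-74538999) had 7.02% in WT and 42.6% in TetTKO. Other homeobox genes of the list had 8 of 583 (1.37%), among them Cdx2, En2, Lmx1b, Pax1, Pax2, Zeb2 and Zfhx3. This count does not include Nkx6-2, a homeobox gene with a member beside it that is described below. Cdx2, the trophoblast and posterior axis factor (chr5:148112000-148112999), had 20.8% and 51.0%, with RNA at 0.27 and 0.92 FPKM. T-box genes had 2 of 66, in Tbx4 and Tbx5, and basic helix-loop-helix genes 2 of 129, in Bhlhe40 and beside Hand1, which the trophoblast list also holds. Forkhead genes had 0 of 184, SOX genes 0 of 85 and GATA genes 0 of 22. A count of 0 of 184 has an exact interval up to 1.98%, the narrowest of these. Except for En2 (2.43 and 2.05 FPKM), Bhlhe40 (3.15 and 2.67) and Nkx6-2 (8.18 and 2.24), the genes named in this paragraph with a member were under 1 FPKM in both libraries.

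Among signalling and receptor genes, nuclear receptors had 5 members of 162 dense windows (3.09%, 1.01 to 7.06). Except for the zinc finger list, the exact intervals of the lists in this paragraph included the 1.53% of all dense windows. Besides Esrrb, Nr5a2, Nr4a2 and Esrrg, they included Rara, a retinoic acid receptor gene (chr11:98830000-98830999), with 9.61% in WT and 53.0% in TetTKO. WNT and Frizzled genes had 4 of 151 (2.65%). Wnt3, a ligand of gastrulation, had adjacent members at chr11:103672000-103673999 with 20.0% and 39.4% in WT and 60.1% and 80.3% in TetTKO, and RNA at 0.22 and 0.88 FPKM. The Wnt5b member (chr6:119433000-119433999; 17.7% and 54.0%) was also at an end of Fbxl14. Fgfr2, a receptor gene for fibroblast growth factors, had 42.2% and 77.3% at chr7:137384000-137384999 and RNA at 1.84 and 4.34 FPKM, while Fgf22 had 42.5% and 76.4%. Bmp7 had the single member of 130 BMP and TGF-beta windows. Klf3, with Klf5 above, made 2 of 90 Kruppel-like and Sp windows. The zinc finger list had 7 of 968 (0.723%, 0.291 to 1.48), all in genes with Zfp symbols. It does not count the members in Sall4, Rreb1 and Zeb2, so its share is not that of all zinc finger genes. Genes of ion channels and transporters had 15 of 1280 (1.17%). Lef1 and Wnt8a accounted for the 2 members of 63 formative and primed windows.

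Lists with no member were the clustered protocadherins (129 dense windows), collagens (116), primitive endoderm genes (93), Polycomb genes (92) and 2-cell-stage genes (8). The upper limits of their exact intervals ran from 2.82% to 36.9%. For every list of this paragraph the interval included the 1.53% of all dense windows, so these low counts do not set the lists apart. The imprinted list had 1 of 154, in Ppp1r9a, and histones 1 of 111, at Hist1h2aa and Hist1h2ba. Olfactory and vomeronasal genes had 1 of 36. In the germline list both members of 76 windows lay at Mov10, a broadly expressed RNA helicase gene.

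Tet1 was the DNA methylation gene with members, 2 of the 66 windows of that list. The adjacent windows at chr10:62341000-62342999 stood at 23.2% and 13.02% in WT and at 54.3% and 51.3% in TetTKO, and the second contains the end of the Tet1 interval at position 62342762. Tet1 RNA had 15.1 FPKM in WT and 4.36 in TetTKO. Tet1 is itself a target of the CRISPR guides, so what the mutation did at this locus and what loss of the enzymes did cannot be told apart.

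RNA of genes with members differed little between the libraries. A member lay in 475 genes, of which 38.3% (33.9 to 42.9) were under 1 FPKM in both libraries, against 34.5% of genes with any dense window and 47.3% of genes with intermediate non-members. Of the 293 at 1 FPKM or more, the median log2((TetTKO + 1)/(WT + 1)) was -0.04 (-0.09 to 0.02), against -0.02 for genes with any dense window. Of these 293, 2 were at least 2-fold higher and 4 at least 2-fold lower in TetTKO, 0.683% and 1.37%, where 1.68% and 0.831% of all 10596 expressed autosomal genes were. The 2 higher genes were Wnt8a and Pdlim3. The 4 lower ones were Tet1, Rasgrp2 and the chromosome 6 genes Cdkn1b (26.1 and 10.8 FPKM) and Ccnd2 (5.57 and 1.37), regulators of the cell cycle. Without chromosome 6, which had more WT bisulfite coverage, 2 genes were higher and 2 lower 2-fold of 281. Any excess of TetTKO over WT was seen in 135 genes with or without chromosome 6, and the median without it was -0.02. Thus none of the expressed chromosome 6 genes whose interval a member touched was higher. Genes with a member only beyond their end are not in this count. The part of that coverage in these values was not tested. Genes nearest to members outside genes had a median log2 fold change of 0.04 (-0.03 to 0.08) over 118 expressed genes, against 0.02 for all dense windows. Among these nearest genes 51.6% were under 1 FPKM in both libraries, against 43.7%.

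Silent genes were frequent among those with a member at an end. The interval of their share included the share for intermediate non-members and the 50.7% of all autosomal genes. Of 116 such genes, 53.4% (44.0 to 62.8) were under 1 FPKM in both libraries, against 31.2% of genes with any dense window at an end and 47.3% of those with an intermediate non-member there. The 54 expressed ones had a median log2 fold change of -0.06 (-0.15 to 0.08), against -0.02. Of these 54, 3 were at least 2-fold higher and 3 at least 2-fold lower, 5.56% each (1.16 to 15.4). Among the 9566 expressed genes with any dense window at an end the shares were 1.09% and 0.753%. With an intermediate non-member at an end they were 2.63% and 1.07% of 1784 expressed genes. Only the 2.63% lay within the interval of 1.16 to 15.4, and the other shares lay below it. That interval rests on 3 genes each way, and these contrasts were not tested. Wnt8a, a ligand of the early embryo, had 1.47 FPKM in WT and 6.34 in TetTKO, while the window at the high end of its interval on chromosome 18 had 34.0% and 64.5% of methylation. Pdlim3, at 0.67 and 2.36 FPKM, counted as expressed through TetTKO alone, as did Cntfr and Rprm. Hist1h2aa, a germline histone gene, stood at 70.5 FPKM in WT and 142 in TetTKO and shares its window with Hist1h2ba at 86.8 and 121 FPKM. Histone copies are similar in sequence, so how reads were split between them is uncertain.

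Downward, Tet1 was followed by Nkx6-2, a homeobox gene of neural progenitors, with 8.18 FPKM in WT and 2.24 in TetTKO. The member beside it (chr7:146764000-146764999) had 31.3% and 66.8%. Rasgrp2, a RAP exchange factor gene, had 21.9 and 7.27 FPKM, and its window at chr19:6414000-6414999 19.7% and 52.1%. As3mt, the arsenite methyltransferase gene, had 9.93 and 4.65 FPKM and 18.7% and 54.4%. Fbxl14 (chromosome 6), Irgm1, Sfi1 and Mov10 had log2 fold changes from -0.68 to -0.55. Cntfr, Tlr2, Chd7, Hist1h2ba and Rprm completed the 8 largest upward, from 0.46 to 0.90. Gains of methylation at a gene end thus went with RNA values in both directions.

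**Figure D5:**
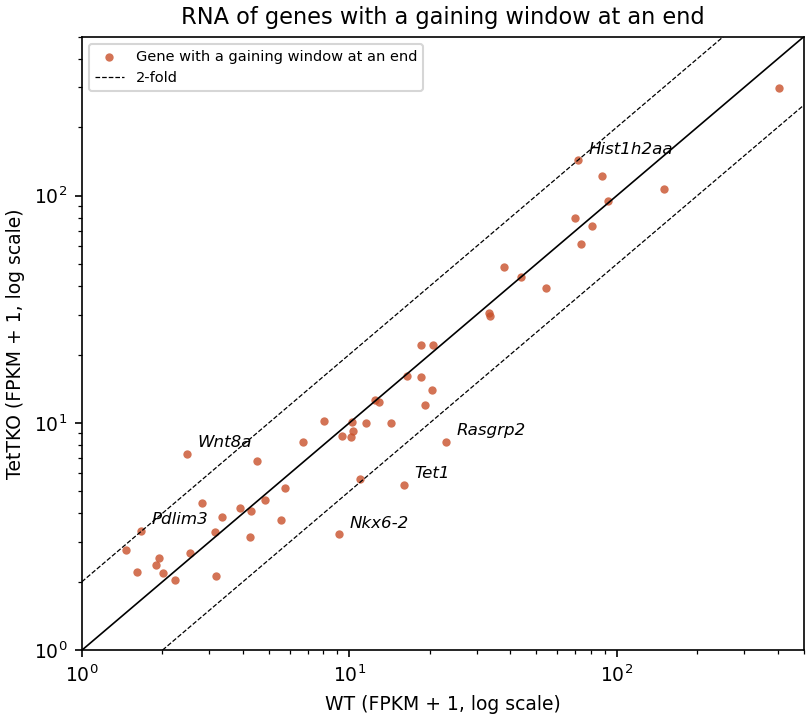
RNA of the 54 expressed genes with a member at an end, in WT (x) and TetTKO (y), as FPKM + 1 on log scales, 1 library each, with equal values as the solid line and 2-fold differences dashed. Genes past 2-fold are named, 3 on each side. Rmrp, with 207942 FPKM in WT and 188521 in TetTKO, lies beyond the axes and is not shown.

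Stem cell markers were high in both RNA libraries, with Pou5f1 at 1178 and 1092 FPKM and Sox2 at 192 and 187. Of the others of the list, Nanog (116 and 71.0 FPKM), Zfp42 (698 and 513) and Esrrb (49.3 and 26.4) had lower values in TetTKO. Dppa5a (3211 and 3344) and Tdgf1 (573 and 679) had higher ones. RNA of the CRISPR targets was at 15.1 and 4.36 FPKM for Tet1, 14.9 and 4.13 for Tet2 and 0.32 and 0.27 for Tet3, which does not measure loss of the proteins. Of the 5 fibroblast markers, Col1a1 and Col1a2 were at most 0.4 FPKM, Thy1 was at 1.29 and 0.96, and Vim, which stem cells also express, at 117 and 109. Acta2 was at 1.86 FPKM in WT and 9.84 in TetTKO, and its part in the results was not tested. CpG read calls numbered 132794183 in WT, at a median of 8 per CpG, and 150132176 in TetTKO, at a median of 10.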

How the data were processed

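Whole-genome bisulfite and RNA-seq data of WT and TetTKO cells were used, 1 library each. Per the labels, DNA was sheared to about 350 bp and sequenced as pairs of 110 bp, and rRNA-depleted RNA as single 50 bp reads. Per the submitters' processing notes, the tools included Bismark 0.7.9, TopHat2 2.0.2 and Cufflinks 2.0.2, and the build was mm9. Which gene models were used is not given in the sources used here. Deposited CpG files give methylated and total read counts and the methylated fraction per CpG, for 14323377 CpGs of at least 5 reads. The deposited RNA files give FPKM per gene interval, at unknown depth. FPKM does not hold counts, so no count test was applicable.

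Window levels are means over CpGs of methylated over total reads. Neighbour windows needed 5 CpGs. Rows of a gene symbol were summed. RNA differences are log2 ratios with a pseudocount of 1 FPKM, which understates changes of low genes, for genes of at least 1 FPKM in either library. Intervals are exact 95% binomial, for medians from order statistics. They cover counting only. RefSeq promoters (GRCm38.p6, matched for 16735 of 21478 autosomal symbols, none on chromosome 18) were placed where at least 8 listed CpGs fell on CpGs of the promoter, none in its span elsewhere, and no other shift within 5000 bp of the gene's end did as well. This placed 9994 promoters of 8922 symbols, 64.4% of them with the start exactly at the interval's end. The calculations were tested on simulated data. Python 3.11.15, NumPy 2.4.6 and pandas 2.3.3 were used.

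The members, gene lists and rules for naming genes were chosen with earlier results of these data known. Symbol patterns of 2 gene families were corrected after they caught unrelated genes. Named were the 12 largest gains, genes with at least 3 members, the 8 most different expressed genes each way with a member at an end, members of the lists, and the 4 placed promoters in members with the largest differences. For the zinc finger, olfactory and transporter families counts are given. One listed gene is not reported here by name.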

Additional observations from a re-analysis of the deposited data

How the results depend on the processing

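Of the recomputed values, 50 stayed within their interval or within 1.5 times their count and 27 moved. No paired analysis was possible because each group had 1 library, and no replicate could be left out. The number of members and of losing windows followed the thresholds, at 1627 and 44 with 25 points, 135 and 4 with 40 points, 2104 and 54 with at least 15 CpGs and 87 and 4 with at least 30 CpGs. With 40 points 10.4% of members lay at a gene end, and with window centres alone 8.96%. With at least 30 CpGs the shares in genes, at ends and next to an unmethylated window were 77.0%, 19.5% and 9.41%, and the median difference 2 windows away was -0.98 points. Requiring 10 reads at each counted CpG left 3603 dense windows, 11 of them members and 1 losing. Of these 11, 90.9% touched genes, 36.4% lay at ends and 18.2% were next to an unmethylated window. Windows 2 away then had a median of 67.3% in WT and a difference of -2.79 points, 0% of 10 host genes were silent, and the median log2 fold change of 5 genes was -0.45. The share of dense windows that were members was then lower as well, and the cause was not tested. With neighbours of at least 10 CpGs, those 2 away had 65.4% and a difference of 2.80 points. Unmethylated taken as under 20% gave 24.5% of members, and silent as under 0.5 FPKM gave 29.1% of host genes. With pooled reads 795 windows were members, 693 of them shared with the 792 reported. A grid shifted by 500 bp gave 800 members, centring on the median dense window 620, and leaving out chromosome 6 744. Leaving out the Sfi1 window, a choice made after seeing the data, gave 791 members and moved no value.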

Other observations

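Among windows of every CpG number, gains and losses of 30 points changed their balance with CpG density. Windows of 5 to 9 CpGs had 0.451% gaining and 0.933% losing, those of 10 to 14 had 0.845% and 0.100%, and those of 15 to 19 had 1.496% and 0.0410%. Few CpGs make a window mean noisier, and this was not tested.

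The 18 losing dense windows included 3 adjacent ones in the Pcdha protocadherin cluster of chromosome 18, from 56.7% to 91.0% in WT and from 15.0% to 59.5% in TetTKO, and 1 in the imprinted gene Peg10 (chr6:4699000-4699999), with 43.6% and 13.5%. Chromosome 6 held 6 of the 18, and 48 of the 792 members. The X chromosome had 95 dense windows, of which 0 gained and 0 lost 30 points, and the largest gain there was 22.5 points. On the autosomes 1.53% of dense windows gained and 0.0347% lost. The median WT level of the X windows was 0.968%, and 0.352% of autosomal dense windows under 10% in WT gained. So few windows cannot show whether the X chromosome differed.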
